A study of Zea mays with 18 samples.

Results

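The transcripts of 8 heat shock protein loci were followed through late kernel formation in the maize inbred lines DAN3130 and JI63. The loci were those whose list of gene identifiers held 1 of 8 B73 genes named as heat shock proteins. This rule uses no measured value, although the genes were proposed with earlier results of these data known. They were 8 of 77704 loci in the deposited expression table. All 8 had means over 10 normalized counts, the filter used, and were among the 29191 loci tested.

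Whole kernels of both lines were sampled on day 24 and day 35 after pollination (DAP 24 and DAP 35) and at maturity, which was taken as the time when the plants had yellowed. Each of the 6 groups of line and stage held 3 libraries, 18 in all, and the labels name no transgene and no treatment. DAN3130 derives from an American hybrid and JI63 from a cross between crosses. Both are Chinese inbreds of the NSS subpopulation. The plants were grown at 1 site in 1 summer, and the lines had been compared by the study for their folate contents. The relation of RNA pooling to the 3 replicates was not stated, so p-values measure the spread between these libraries. Reads counted in loci ranged from 9428728 to 133264978 per library. They were 9428728 to 37739888 in mature DAN3130 and 19237248 to 21412278 in mature JI63, against 35571187 to 133264978 in JI63 on DAP 35. By the paper's sequencing overview, uniquely placed reads were a smaller part of mapped reads in every mature library than in any immature one. These library differences go with stage, and their part in the changes to maturity was not tested. A value called a normalized count is the authors' count of a locus after scaling between libraries. The test was limma on log2 of the normalized count plus 1, with the p-value adjusted by the Benjamini-Hochberg method over all 29191 loci, and a locus was called at an adjusted p under 0.05. Because kernels were whole, fewer cells of a type and less RNA per cell cannot be told apart.

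Heat shock proteins are molecular chaperones. Small heat shock proteins hold unfolding proteins without using ATP, while the HSP70 and HSP90 families spend ATP to fold or mature their clients and HSP101 pulls aggregated proteins apart. Many of them are made at ordinary temperature in maturing seeds, together with late embryogenesis abundant proteins, in the period when the seed acquires tolerance to drying. Heat shock transcription factors drive their genes.

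The small heat shock proteins contributed 5 of the 8 loci. On the B73 AGPv4 genome, hsp26 (Zm00001d028408), a plastid protein in maize, lay at chr1:33789050-33790182, and hsp22 (Zm00001d052194), a mitochondrial protein, at chr4:182772604-182773832. The hsp18 class is cytosolic. It was represented by hsp18c (Zm00001d008841) at chr8:22306312-22308199, by hsp18f (Zm00001d039566) at chr3:8104629-8105643, and by hsp18a (Zm00001d047542). The hsp18a locus spanned chr9:134706910-135126924, or 420015 bases, because the assembly joined 3 genes there, and its count could not be divided among them. The ATP-dependent members were hsp90 (Zm00001d024903) at chr10:93908317-93911235 and hsp70-4 (Zm00001d041550) at chr3:126862057-126866017. The 8th locus, hsp1 (Zm00001d012420), lay at chr8:174179964-174183186. Its name does not give a family, as the names of the others do, and none was assigned to it. The alignment did not use strand, so sense and antisense reads could not be told apart at any of the 8 loci. The table lists hsp22, hsp18c, hsp1 and hsp70-4 as transcripts antisense to their own gene. It gives all 103962 entries the same strand, so this label is no measure of antisense reads.

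For the 5 small heat shock proteins, hsp90 and hsp1, the lowest group mean was that of DAN3130 on DAP 24. The means of mature kernels of both lines were the highest. The starting levels were unlike, with DAP 24 means in DAN3130 from 58.5 for hsp26 to 11993 for hsp1. In JI63 the same loci already stood higher on DAP 24 and gave few calls up to DAP 35. The lowest to highest ratio of the mature mean to the DAP 24 mean among the 8 loci was 1.57 to 668 in DAN3130 and 1.37 to 32.1 in JI63. The locus with the smallest ratio was hsp70-4 in both lines.

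**Figure D1:**
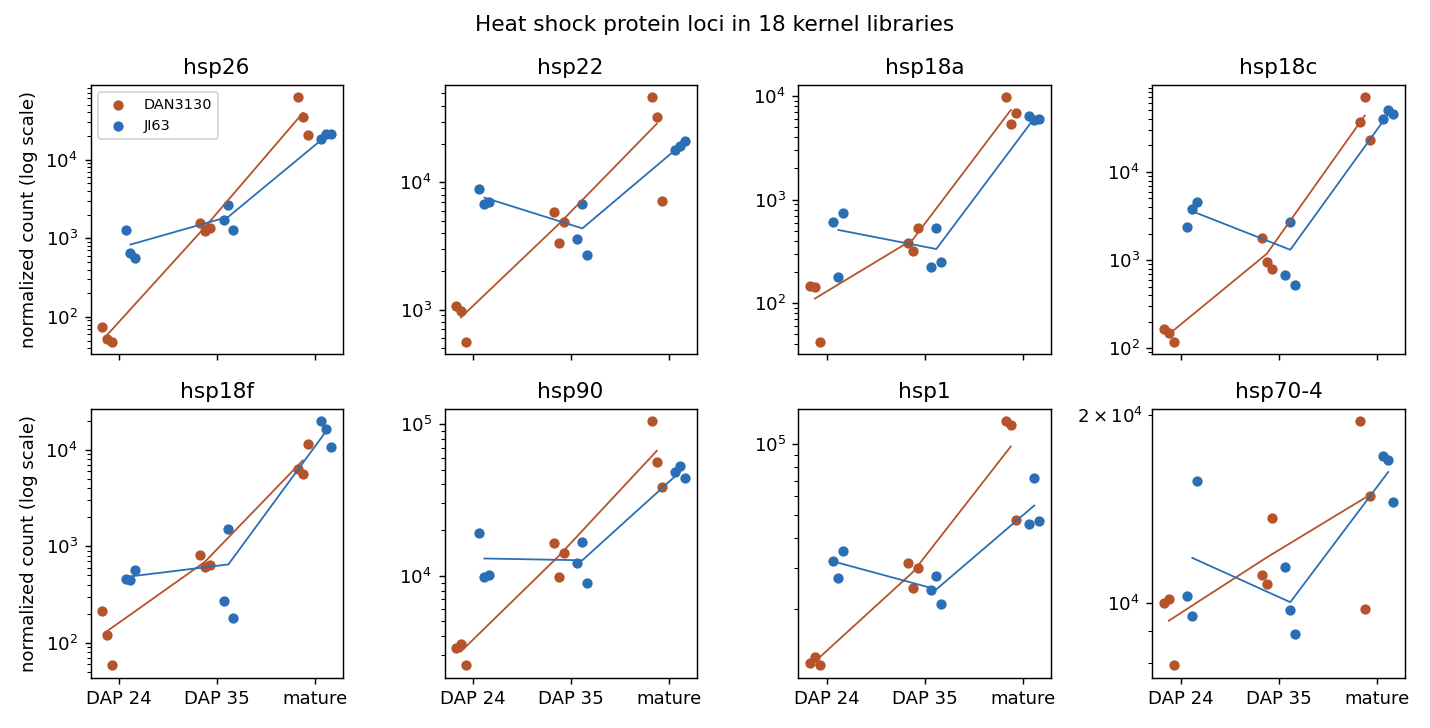
Normalized counts of the 8 loci in the 18 libraries, on a logarithmic axis, with DAN3130 in brown and JI63 in blue; each point is 1 library and each line joins the group means over DAP 24, DAP 35 and maturity. The DAN3130 points lie below the JI63 points on DAP 24 for every locus except hsp70-4, for instance 48.2 to 75.0 against 564 to 1281 for hsp26, and the points of the lines overlap on DAP 35.

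In DAN3130, hsp26 counted 75.0, 52.3 and 48.2 on DAP 24, 1547, 1244 and 1351 on DAP 35, and 62061, 34709 and 20497 at maturity. In JI63 it counted 1281, 646 and 564 on DAP 24, 1686, 2681 and 1254 on DAP 35, and 18144, 21115 and 20858 at maturity. Every DAN3130 library of a later stage was above every library of the stage before it, whereas the DAP 24 and DAP 35 libraries of JI63 overlapped. From DAP 24 to DAP 35, hsp26 rose by 4.56 ± 0.37 (log2, SE, n = 3 against 3, limma adjusted p = 4.01e-06) in DAN3130. In JI63 the change was 1.20 ± 0.37 and missed the threshold (limma adjusted p = 0.0581). From DAP 35 to maturity hsp26 rose by 4.68 in DAN3130 and by 3.49 in JI63 (limma adjusted p = 1.07e-07 and 2.52e-06). On DAP 24 the normalized counts of hsp26 in DAN3130 rested on 33 to 160 reads.

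For hsp18c, DAN3130 libraries gave 166, 148 and 118 on DAP 24, 1791, 946 and 800 on DAP 35, and 37167, 70551 and 22922 at maturity. JI63 libraries gave 2348, 3850 and 4528 on DAP 24, 678, 2724 and 527 on DAP 35, and 40323, 49983 and 45686 at maturity. Every JI63 library of DAP 24 was above every DAN3130 library of DAP 35, and replicate 2 of JI63 on DAP 35 overlapped with DAP 24. From DAP 24 to DAP 35 hsp18c rose by 2.95 ± 0.52 in DAN3130 (limma adjusted p = 0.00235). In JI63 it fell by 1.80 (log2, SE 0.52, limma adjusted p = 0.0398). This fall lost its call under 14 of 30 alternatives, with an adjusted p of 0.0935 under edgeR and a range over all alternatives of 0.00112 to 0.184. From DAP 35 to maturity hsp18c rose by 5.14 in DAN3130 and by 5.51 in JI63 (limma adjusted p = 1.12e-06 and 6.86e-07), the largest rise of the 8 loci in each line.

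For hsp18f, DAN3130 libraries gave 215, 122 and 58.4 on DAP 24, 822, 611 and 638 on DAP 35, and 6278, 5638 and 11359 at maturity. JI63 libraries gave 456, 443 and 563 on DAP 24, 275, 1495 and 179 on DAP 35, and 19945, 16397 and 10654 at maturity. In JI63 a single library of DAP 35, replicate 2, lay above all of DAP 24, and the other two lay below. In DAN3130 hsp18f rose by 2.56 ± 0.61 up to DAP 35 (limma adjusted p = 0.0182) and by 3.43 from there to maturity (limma adjusted p = 0.000232). In JI63 the first change was -0.21 ± 0.61 (limma adjusted p = 0.966) and the second a rise of 5.17 (limma adjusted p = 6.12e-06). The first of these took the opposite sign without replicate 1 or 3 of JI63 on DAP 35, at 0.095 and 0.40, and under edgeR and DESeq2, at 0.40 in both.

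The joined hsp18a locus gave 146, 143 and 42.4 in DAN3130 on DAP 24, then 382, 321 and 530 on DAP 35, and 9723, 5316 and 6880 at maturity. In JI63 it gave 607, 178 and 740, then 223, 526 and 250, then 6445, 5917 and 5920. Mature libraries stood above all immature ones in both lines, and the 2 immature stages of JI63 overlapped. The locus rose by 2.05 ± 0.53 and then by 4.14 in DAN3130 (limma adjusted p = 0.0290 and 1.19e-05), and the first of these calls was lost under 6 of 30 alternatives. In JI63 the changes were -0.48 ± 0.53 (limma adjusted p = 0.764) and a rise of 4.30 (limma adjusted p = 9.72e-06).

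The mitochondrial hsp22 gave 1069, 974 and 558 in DAN3130 on DAP 24, then 5903, 3334 and 4882 on DAP 35, and 46789, 32920 and 7103 at maturity. In JI63 it gave 8883, 6818 and 7069, then 3612, 6745 and 2689, then 17935, 19374 and 21021. JI63 on DAP 24 was above DAN3130 on DAP 35, and replicate 3 of mature DAN3130 lay well below the other two. In DAN3130 hsp22 rose by 2.46 ± 0.52 and by 2.28 over the successive intervals (limma adjusted p = 0.00882 and 0.00183). In JI63 the first change was -0.90 ± 0.52 (limma adjusted p = 0.377) although no library overlapped, and the second was a rise of 2.27 (limma adjusted p = 0.00214).

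HSP90 is an abundant chaperone of signalling proteins. The hsp90 locus gave 3362, 3579 and 2566 in DAN3130 on DAP 24, then 16559, 9870 and 14145 on DAP 35, and 105171, 56405 and 38487 at maturity. In JI63 it gave 19020, 9795 and 10197, then 12186, 16767 and 9030, then 48569, 53118 and 44304. The immature stages of JI63 overlapped with each other and with DAN3130 on DAP 35. In DAN3130 hsp90 rose by 2.07 ± 0.34 and by 2.21 (limma adjusted p = 0.00126 and 6.13e-05). In JI63 it changed by -0.01 ± 0.34 up to DAP 35 (limma adjusted p = 1) and rose by 1.98 to maturity (limma adjusted p = 0.000185).

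The hsp1 locus gave 11825, 12591 and 11564 in DAN3130 on DAP 24, then 31442, 24670 and 29942 on DAP 35, and 125435, 120021 and 47482 at maturity. In JI63 it gave 31958, 27100 and 35224, then 24231, 27529 and 21045, then 45702, 71924 and 47181. The JI63 libraries of DAP 24 overlapped with the DAN3130 libraries of DAP 35 and reached above them. In DAN3130 hsp1 rose by 1.25 ± 0.28 and by 1.65 (limma adjusted p = 0.0132 and 0.000173). In JI63 it changed by -0.37 ± 0.28 (limma adjusted p = 0.563) and then rose by 1.16 (limma adjusted p = 0.00335).

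HSP70 proteins fold new and damaged proteins with the help of DnaJ co-chaperones. The hsp70-4 locus gave 9996, 10128 and 7929 in DAN3130 on DAP 24, then 11082, 10699 and 13658 on DAP 35, and 19559, 9775 and 14790 at maturity. In JI63 it gave 10242, 9499 and 15636, then 11392, 9730 and 8917, then 17153, 16939 and 14488. Its groups stayed within a narrow range and overlapped, except that DAN3130 on DAP 24 lay below DAP 35 and mature JI63 above DAP 35. Of its 4 stage changes, only that of JI63 from DAP 35 to maturity was called (0.70 ± 0.23 on the log2 scale, limma adjusted p = 0.0193). This call was lost without replicate 3 of JI63 on DAP 35 or replicate 1 or 2 of mature JI63 (limma adjusted p = 0.0726, 0.0589 and 0.0548). It was also lost with no filter, with no trend and without both libraries that stand apart, replicate 2 of JI63 on DAP 35 and replicate 3 of mature DAN3130 (limma adjusted p = 0.0596, 0.0537 and 0.0521). With all libraries set to equal totals, the change of hsp70-4 toward maturity took the opposite sign, at -0.20 in DAN3130 and -0.26 in JI63, and neither was called.

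**Figure D2:**
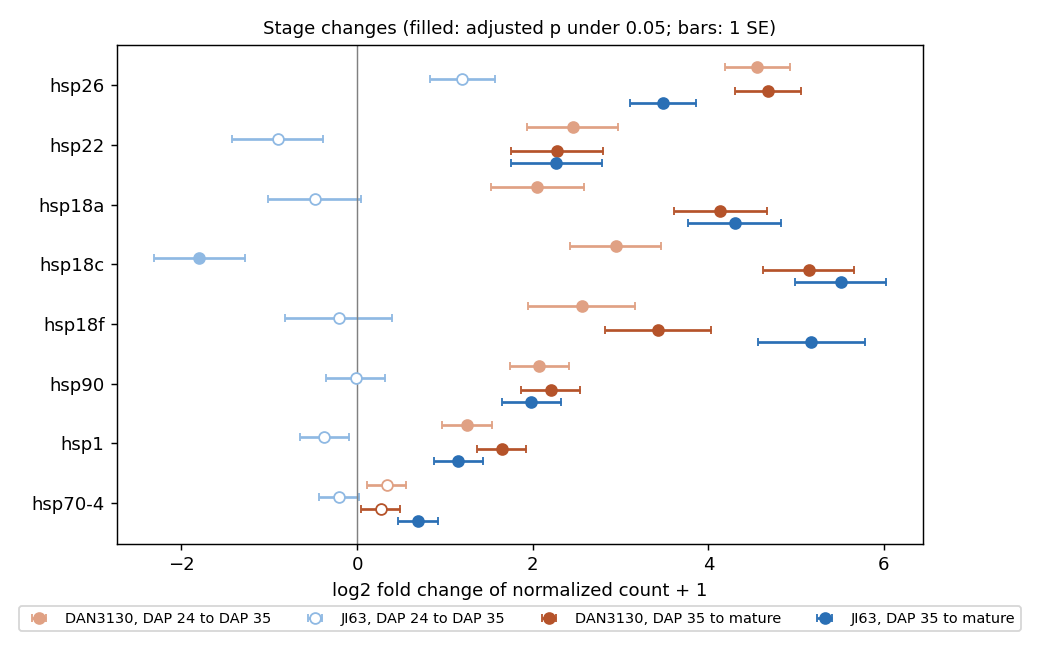
Log2 fold changes of the 8 loci between stages, with 1 SE to each side; filled points have an adjusted p under 0.05, brown shades are DAN3130 and blue shades JI63, and the lighter shade is DAP 24 to DAP 35. The light brown points run from 0.34 for hsp70-4 to 4.56 for hsp26, and the light blue points from -1.80 for hsp18c to 1.20 for hsp26.

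Counted together, in DAN3130 7 of the 8 loci were called higher on DAP 35 than on DAP 24 and none lower, where 4.41% of all tested loci were called higher and 2.14% lower. The median change of the 8 loci was 2.27 and that of all tested loci -0.04. edgeR and DESeq2 on the reads recovered from the table also called 7. Under edgeR, 1242 of all loci were higher and 327 lower, against 1288 and 624 in limma. Without replicate 3 of DAN3130 on DAP 24 the count was 3, since hsp18f, hsp22, hsp1 and hsp18a then had adjusted p-values of 0.0516 to 0.146. Without replicate 1 of DAN3130 on DAP 35 it was 4. With no filter, hsp18f and hsp18a were lost (limma adjusted p = 0.0533 and 0.0748), with only the groups compared hsp18a (0.0613), and on equal totals hsp1 (0.0517).

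In JI63 over the same interval, 1 of the 8 loci, hsp18c, was called lower and 0 were called higher, where 4.82% of all loci were called lower and 4.27% higher. The median change of the 8 loci was -0.29 and that of all loci 0.00. At an unadjusted p under 0.05 limma gave 2 loci, edgeR called 0 and DESeq2 2. The count was 0 to 2 when single libraries were left out. It was 2 without replicate 1 of JI63 on DAP 24 or without replicate 1 or 3 of mature DAN3130, in each case with hsp26 as the added locus. Without replicate 3 of JI63 on DAP 35, hsp26 was called and hsp18c was not. It was 0 without replicate 2 or 3 of JI63 on DAP 24, replicate 1 of JI63 on DAP 35, replicate 1 or 3 of mature JI63, any DAN3130 library of DAP 24, or replicate 2 of DAN3130 on DAP 35.

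From DAP 35 to maturity 7 of the 8 loci were called higher in DAN3130 and 8 of 8 in JI63, and none was called lower. In DAN3130 hsp22 and hsp1 lost their calls with only the groups compared (limma adjusted p = 0.0809 and 0.0526), and hsp18f with a variance for each group (0.0689). Of all tested loci, 19.2% were higher and 31.5% lower in DAN3130, and 17.8% higher and 27.8% lower in JI63. The median change of the 8 loci was 2.85 in DAN3130 and 2.88 in JI63, against -0.43 and -0.36 for all loci. The column totals after the authors' scaling averaged 24492278 on DAP 35 and 34283086 at maturity in DAN3130, and 24909522 and 48013367 in JI63. Setting totals equal moved the median of all loci by -0.43 in DAN3130 and by -0.82 in JI63, while edgeR and DESeq2 moved it by 0.29 and 0.39 in DAN3130. With equal totals all loci split into 4048 higher and 11559 lower in DAN3130, against 5613 and 9196 on the deposited scale, and into 2502 higher and 12855 lower in JI63, against 5194 and 8108. On equal totals 5 of the 8 loci were still called higher in JI63, namely the small heat shock proteins other than hsp22, and hsp90. The change of hsp1 was 0.20 (limma adjusted p = 0.667) and that of hsp22 1.31 (limma adjusted p = 0.0600).

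A ratio of counts within a library does not depend on the scale between libraries. Relative to hsp70-4, hsp26 in DAN3130 lay between 0.00517 and 0.00750 on DAP 24, between 0.0989 and 0.140 on DAP 35, and between 1.39 and 3.55 in mature kernels. In JI63 the same ratio lay between 0.0361 and 0.125, then between 0.141 and 0.276, then between 1.06 and 1.44. These ranges did not overlap between stages in either line, although the hsp26 counts of JI63 on DAP 24 and DAP 35 did. The ratio depends on the count of hsp70-4 as well as on that of hsp26. The ratio of hsp18c to hsp70-4 in JI63 was between 0.229 and 0.405 on DAP 24, between 0.0591 and 0.280 on DAP 35 and between 2.35 and 3.15 in mature kernels. For hsp1 the JI63 ratios overlapped between DAP 35, at 2.13 to 2.83, and maturity, at 2.66 to 4.25. So did the DAN3130 ratios of hsp22, at 0.312 to 0.533 on DAP 35 and 0.480 to 3.37 at maturity.

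On DAP 24 the lines differed. In DAN3130, 7 of the 8 loci were called lower than in JI63 and none higher, where 13.6% of all loci were lower and 11.2% higher. The median difference of the 8 loci, DAN3130 minus JI63, was -2.11, and that of all loci -0.01. The mean of hsp18c was 24.8-fold lower in DAN3130 (144 ± 24.2 against 3575 ± 1115, SD, n = 3) and that of hsp26 14.2-fold lower (58.5 ± 14.4 against 830 ± 392). In the same direction, hsp22 was 8.75-fold, hsp18a 4.60-fold, hsp90 4.10-fold, hsp18f 3.70-fold and hsp1 2.62-fold lower. The groups did not overlap for any of these 7 loci, and their limma adjusted p-values ran from 1.70e-06 for hsp26 to 0.0195 for hsp18f. Overlap of the lines was not counted over all loci at any stage, so no general share can be set beside it. For hsp70-4 the groups overlapped, with 9351 ± 1233 in DAN3130 and 11793 ± 3350 in JI63 (limma adjusted p = 0.401). The count of called loci was 6 to 7 when single libraries were left out.

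**Figure D3:**
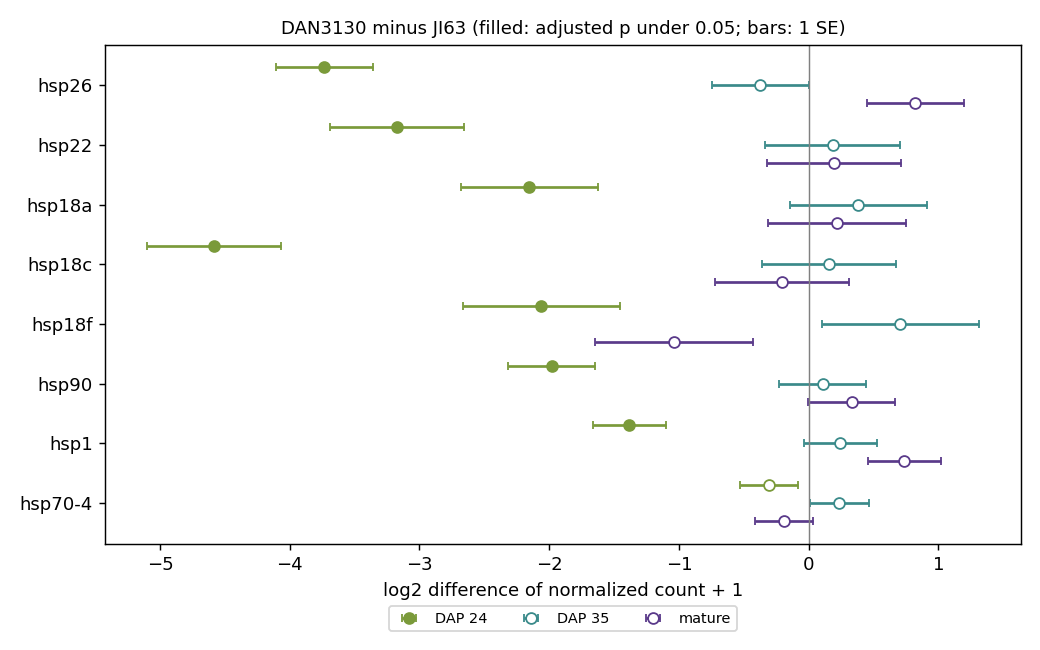
Log2 differences between the lines, DAN3130 minus JI63, for the 8 loci on DAP 24 (green), on DAP 35 (teal) and at maturity (violet), with 1 SE to each side; filled points have an adjusted p under 0.05. The DAP 24 points of 7 loci are filled and lie between -4.58 for hsp18c and -1.38 for hsp1, and none of the points of DAP 35 or maturity is filled.

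On DAP 35 limma called 0 of the 8 loci between the lines, where 11.3% of all loci were higher and 11.9% lower in DAN3130. All 8 groups of DAN3130 libraries overlapped with those of JI63, and the differences ran from -0.37 for hsp26 to 0.71 for hsp18f. None had an unadjusted p under 0.05, and edgeR and DESeq2 also called 0. Without replicate 2 of JI63 on DAP 35, hsp18f was called higher in DAN3130 (1.62 on the log2 scale, limma adjusted p = 0.0177). Leaving out single libraries of DAP 35 turned the signs of hsp18c, hsp90 and hsp22. The median difference was 0.21 over the 8 loci and -0.06 over all loci.

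At maturity limma again called 0 of the 8 loci, where 15.6% of all loci were higher and 21.5% lower in DAN3130. The median difference was 0.21 over the 8 loci and -0.13 over all loci. At an unadjusted p under 0.05 there were 2, hsp26 and hsp1, with differences of 0.82 ± 0.37 and 0.73 ± 0.28 (limma adjusted p = 0.0972 and 0.0516). edgeR called 0 and DESeq2 called these 2. On equal totals the same 2 loci were called, at 1.32 and 1.23, and all loci split into 6621 higher and 4400 lower in place of 4551 and 6286. Replicate 3 of mature DAN3130 stood apart, and without it hsp26, hsp22 and hsp1 were called higher in DAN3130 at 1.22, 1.02 and 1.19. By the paper's sequencing overview, its GC content lay within the range of mature JI63. Replicates 1 and 2 of mature DAN3130 had a lower GC content than all of these. The part of GC content in the comparison of the mature lines was not tested. Without replicate 2 of mature JI63 hsp1 alone was called, at 0.95. The signs of hsp90, hsp22 and hsp18a turned without replicate 1 of mature DAN3130, to -0.059, -0.34 and -0.0099. Those of hsp22 and hsp70-4 turned without replicate 2, to -0.09 and 0.075, and that of hsp18c without replicate 3, to 0.18.

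Whether the lines changed unequally was tested directly as the JI63 change minus the DAN3130 change. From DAP 24 to DAP 35, 5 of the 8 loci were called lower and 0 higher, where 1.66% of all loci were lower and 0.706% higher. The difference was -4.74 ± 0.73 for hsp18c, -3.36 ± 0.53 for hsp26, -3.36 ± 0.73 for hsp22, -2.09 ± 0.47 for hsp90 and -1.62 ± 0.40 for hsp1 (limma adjusted p = 0.00383, 0.00459, 0.0257, 0.0306 and 0.0433). For hsp18f, hsp18a and hsp70-4 it was -2.77, -2.53 and -0.54 and was not called (limma adjusted p = 0.112, 0.0925 and 0.514). edgeR called 5 loci and DESeq2 6, and with a variance for each group hsp18f and hsp18a were called as well (limma adjusted p = 0.0276 and 0.0368). The median was -2.65 over the 8 loci and 0.04 over all loci.

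The call of a difference held for hsp18c and hsp26 with each single library left out. The count was 2 without any 1 of the 3 DAN3130 libraries of DAP 24, without replicate 1 or 3 of DAN3130 on DAP 35, without replicate 1 of JI63 on DAP 24, or without replicate 1 or 3 of JI63 on DAP 35. It was 3 without replicate 3 of JI63 on DAP 24. The adjusted p-values of hsp90, hsp22 and hsp1 where they were lost stayed between 0.0501 and 0.112. These differences share the libraries of the line comparison on DAP 24 and of both stage changes.

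From DAP 35 to maturity limma called 0 of the 8 loci as changed unequally between the lines, where 7.92% of all loci were higher in JI63 minus DAN3130 and 5.9% lower. The differences ran from -1.20 for hsp26 to 1.74 for hsp18f, with a median of 0.08 against 0.14 for all loci. Those of hsp18c, hsp18a, hsp22 and hsp90 turned sign with single libraries left out. Only hsp26 had an unadjusted p under 0.05, and edgeR and DESeq2 called 0. Without replicate 3 of mature DAN3130, hsp26 and hsp1 were called, at -1.59 and -0.95, and without replicate 2 of JI63 on DAP 35 hsp18f was called, at 2.66. On equal totals all loci split into 1538 higher and 2517 lower in place of 2311 and 1721.

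The 8 loci together took between 0.0952 and 0.116% of the counts in loci in DAN3130 on DAP 24, and between 0.214 and 0.277% on DAP 35. In mature DAN3130 replicates 1 to 3 gave 1.44, 1.004 and 0.416%. In JI63 they took 0.234 to 0.318%, then 0.194 to 0.236%, then 0.405 to 0.575%. The share was higher in every library of a later stage than in any of an earlier one in DAN3130, while the 2 immature stages of JI63 overlapped. The libraries of mature DAN3130 were the most variable, with a median SD of 0.76 on the log2 scale over the 8 loci, against 0.13 in mature JI63. Over all tested loci the median SD was 0.88 and 0.43 in the same groups. The highest SD of a single locus of the 8 was 1.62, in JI63 on DAP 35, against 1.45 in mature DAN3130.

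Markers of kernel tissues also differed between the stages. Of 11 loci named as embryo markers (globulins, oleosins, embryo specific proteins and viviparous1) 9 were tested, and oleosin3 was at 0 in every library. Their summed share lay between 1.81 and 2.30% in DAN3130 and between 3.43 and 3.47% in JI63 on DAP 24. It lay between 5.13 and 5.68% and between 5.16 and 10.6% on DAP 35, and in mature kernels between 5.06 and 9.01% and between 7.55 and 9.27%. The loci of this list did not move together. On DAP 24, 3 of the 9 were called lower in DAN3130, 0 higher and 6 not called. Toward maturity 3 were called higher and 2 lower in DAN3130, and 4 and 2 in JI63. Among all tested loci, 13.6% were lower and 11.2% higher in DAN3130 on DAP 24. Toward maturity 19.2% of them were higher and 31.5% lower in DAN3130, and 17.8% and 27.8% in JI63. In DAN3130 the mean of embryo specific protein5 went from 15831 on DAP 35 to 150735 at maturity, and that of globulin3 from 9425 to 204. The embryo share was thus lower in DAN3130 than in JI63 on DAP 24, as were the 7 heat shock protein loci. In DAN3130 every library of DAP 35 was above every library of DAP 24, both in the embryo share and in the heat shock protein share. In JI63 the embryo share was higher on DAP 35 than on DAP 24, and the heat shock protein share was not. In mature DAN3130, replicate 1 had the lowest embryo share, 5.06%, and the highest heat shock protein share, 1.44%. Replicate 3 had the highest embryo share, 9.01%, and the lowest heat shock protein share, 0.416%. The highest embryo shares in their groups belonged to the libraries that stood apart, replicate 2 of JI63 on DAP 35 with 10.6% and replicate 3 of mature DAN3130 with 9.01%.

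The 25 loci matched by words for endosperm storage proteins and endosperm mutants, of which 7 to 10 were at 0 in all libraries of a group, took 6.51 to 7.66% in DAN3130 and 3.21 to 5.59% in JI63 on DAP 24. One of them, brittle stalk2, is a cell wall gene matched by its name alone, with a mean of 189.5 normalized counts. The list took 3.37 to 3.59% and 0.755 to 0.979% on DAP 35, and 0.0174 to 0.0906% and 0.00763 to 0.0165% at maturity. The summed share of this list was thus lowest at maturity, where the heat shock protein loci were highest. Of its 17 tested loci, 14 were called lower and 1 higher toward maturity in DAN3130, and 15 and 1 in JI63. Among all tested loci, 31.5% were called lower in DAN3130 and 27.8% in JI63. The parts of embryo and endosperm share in the results were not tested.

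**Figure D4:**
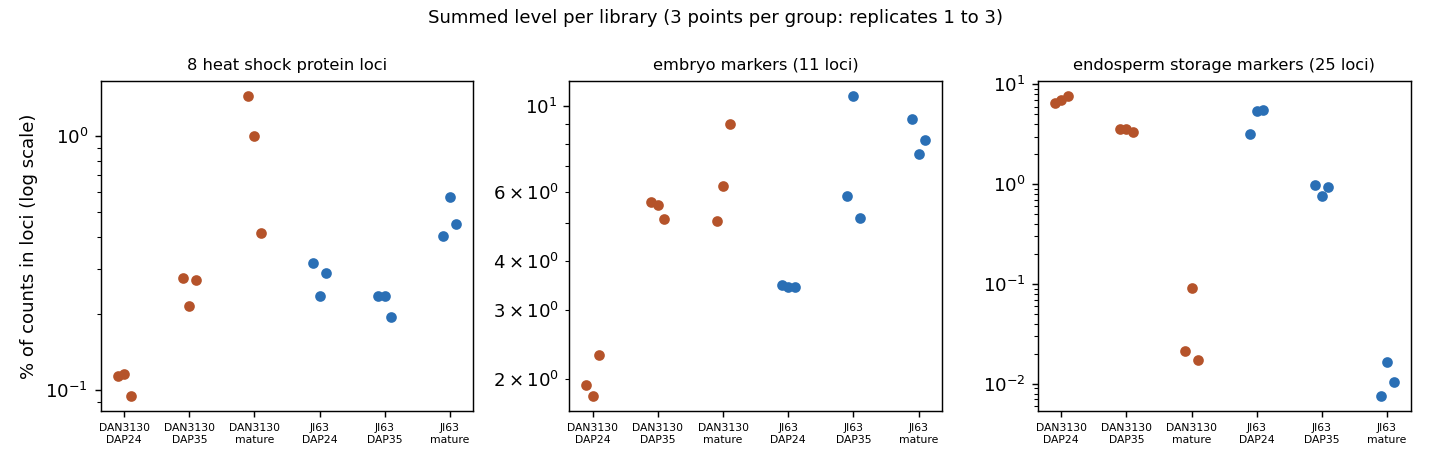
Summed share of the counts in loci, in percent on a logarithmic axis, for the 8 heat shock protein loci, 11 embryo markers and 25 endosperm storage markers; each point is 1 library, with replicates 1 to 3 from left to right in each group. The heat shock protein share runs from 0.0952 to 1.44%, and the storage share from 7.66 down to 0.00763%.

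Levels of different loci were compared per kilobase of the longest isoform. The count of the hsp18a locus comes from 3 joined genes but was divided by the 775 bases of 1 isoform. Its place in the orders below is therefore not strictly comparable with those of single genes. In DAN3130 on DAP 24 the normalized count per kilobase was highest for hsp1 (4915 ± 219, SD, n = 3), followed by hsp70-4 (4027 ± 531), hsp90 (1135 ± 191) and hsp22 (705 ± 221). The intervals of mean ± SD of these 4 did not overlap between neighbours, while those of the other small heat shock proteins did, from 143 ± 76.3 for hsp18a to 56.7 ± 14.0 for hsp26. At maturity hsp26 had moved from the last place to the second, with 37877 ± 20470 behind 40019 ± 17839 for hsp1, and hsp70-4 from the second to the last, with 6334 ± 2107. The intervals of mean ± SD overlapped between all neighbours in that order. In mature JI63 the order began with hsp18c (26618 ± 2842), hsp1 (22515 ± 6037) and hsp26 (19418 ± 1595) and ended with hsp18a (7863 ± 393) and hsp70-4 (6974 ± 638). There the intervals of mean ± SD overlapped between all neighbours except hsp18f (15434 ± 4619) and hsp18a.

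The members varied together over the 18 libraries. Pearson's r on the log2 scale was 0.83 to 0.98 for the 21 pairs without hsp70-4 and 0.65 to 0.79 for the 7 pairs with it. The libraries share stage and line, so these values describe the common course only. Among 2615 other loci that carry a gene name and have a mean of at least 100, the most similar to hsp90 was chaperone DNA J homolog1 (r = 0.975, n = 18), which was also among the closest to hsp26 (0.964), hsp22 (0.914) and hsp1 (0.949). The most similar to hsp22 and hsp1 was heat-shock protein 101 (0.927 and 0.954). For hsp26 it was WRKY-transcription factor 36 (0.969), for hsp18c thioredoxin h homolog2 (0.973), for hsp18a MYB-transcription factor 133 (0.964) and for hsp18f human viral protein homolog1 (0.986). The closest to hsp70-4 reached 0.809, for multidrug resistance associated protein7.

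Other chaperones named in the table did not all follow the 8 loci. Only 2 further loci were named as heat shock proteins. One of them, heat shock protein17.2, had a mean of 0.66 and was not tested. The other, heat-shock protein 101, the disaggregase, counted 7580, 7756 and 7088 in DAN3130 on DAP 24, then 33177, 23954 and 27448 on DAP 35, and 75503, 95527 and 40939 at maturity. In JI63 it counted 24113, 17281 and 24897, then 20432, 30717 and 17916, then 36809, 37046 and 33693. Like the majority of the 8 loci, it was lower in DAN3130 on DAP 24, and the immature stages of JI63 overlapped.

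In DAN3130 heat-shock protein 101 rose by 1.90 and by 1.25 (limma adjusted p = 0.000268 and 0.000795). In JI63 it changed by 0.04 (limma adjusted p = 1) and then rose by 0.68 (limma adjusted p = 0.0416). The difference in the first change, JI63 minus DAN3130, was -1.86 (limma adjusted p = 0.0143). At maturity it was higher in DAN3130 by 0.89 (limma adjusted p = 0.0128).

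Both DnaJ loci rose toward maturity in both lines. For chaperone DNA J homolog1 the rise was 1.61 in DAN3130 and 1.28 in JI63 (limma adjusted p = 2.45e-05 and 0.000235), and for chaperone DNA J2 it was 0.62 and 1.48 (limma adjusted p = 0.000207 and 6.85e-08). BiP, the HSP70 of the endoplasmic reticulum, moved the other way. Its loci Binding protein homolog1 and Binding protein homolog2 fell, with log2 changes of -1.90 and -2.12 in DAN3130 and of -1.74 and -1.94 in JI63 (limma adjusted p = 8.55e-06, 1.61e-06, 2.34e-05 and 4.39e-06). Of 3 chaperonins, which enclose folding proteins in a chamber, 2 fell in both lines, with changes of -1.09 and -1.41 for chaperonin2 and of -1.003 and -1.64 for chaperonin 1 (limma adjusted p = 0.000983, 0.000134, 0.00849 and 0.000241). The remaining one, chaperonin10, rose by 1.93 in JI63 (limma adjusted p = 8.46e-05) and changed by 0.32 in DAN3130 (limma adjusted p = 0.394). Falls were the commoner call toward maturity over all tested loci, at 31.5% against 19.2% rises in DAN3130 and 27.8% against 17.8% in JI63.

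Of 29 loci named as heat shock transcription factors, 24 were tested. Toward maturity, DAN3130 had 12 that rose and 3 that fell, with a median of 1.13 over the list. JI63 had 11 that rose and 1 that fell, with a median of 1.67. From DAP 24 to DAP 35, 3 rose in DAN3130 and 4 in JI63, and none fell. On DAP 24, 6 of the 24 were lower in DAN3130 than in JI63 and none higher. On DAP 35 1 was lower and none higher, and at maturity 7 were lower and 2 higher. Of all tested loci, 19.2% rose and 31.5% fell toward maturity in DAN3130, with a median of -0.43. In JI63 17.8% rose and 27.8% fell, with a median of -0.36. Up to DAP 35, 4.41% rose and 2.14% fell in DAN3130, and 4.27% and 4.82% in JI63. Between the lines, 13.6% were lower in DAN3130 on DAP 24, 11.9% on DAP 35 and 21.5% at maturity. The shares higher in DAN3130 were 11.2, 11.3 and 15.6%.

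The 2 factors with the largest rise toward maturity were the same in both lines. HSF-transcription factor 17 counted 62.5, 16.1 and 101 on DAP 35 and 5972, 12577 and 1362 at maturity in DAN3130, and 52.4, 139 and 56.4 and then 1447, 3911 and 2765 in JI63. It rose by 6.61 in DAN3130 and by 5.05 in JI63 (limma adjusted p = 6.36e-06 and 9.21e-05). HSF-transcription factor 12 counted 8.52, 0 and 0 on DAP 35 and 1738, 3942 and 231 at maturity in DAN3130. In JI63 it counted 0.520, 0 and 0 and then 237, 1337 and 229. It was called higher at maturity in both lines (limma adjusted p = 9.60e-06 and 2.12e-05), and no fold is given because the DAP 35 libraries were at or near 0.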

How the data were processed

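RNA-seq libraries of whole kernels were grouped by line and stage from the sample labels, and each deposited column was matched to its sample by name. According to the submitters' notes and the methods, the authors mapped cleaned reads to the B73 genome (AGPv4) with HISAT2 2.1.0, not using strand. Cufflinks and Cuffcompare gave the transcript models, and HTSeq 0.11.2 the count of reads per locus. The deposited values are a signal that the authors made by dividing counts by DESeq2 size factors, and the length column gives bases per locus. All values (100%) of each column were whole multiples of a single step within 0.001 reads, so counts of reads were recovered from the deposited signal. Intron entries were kept out of the tests. All 103962 entries carry the same strand.

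The 8 loci, the gene lists and the tests were chosen with earlier results of these data known. The test was limma 3.58.1 under R 4.3.3 (eBayes, trended prior variance), fitted to 6 group means on log2 of the signal plus 1 over loci with a mean above 10, because the deposited unit is not a count. edgeR 4.0.16 (quasi-likelihood, TMM) and DESeq2 1.42.0 were run on the recovered reads as alternatives. The others were a pseudocount of 0.5 or 5, no filter or a mean above 1, equal totals, equal upper quartiles, only the groups compared, no trend, a variance for each group, and leaving out each library. Leaving out replicate 2 of JI63 on DAP 35 together with replicate 3 of mature DAN3130 was chosen after seeing the data. The scripts were tested on simulated data.

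Besides the 8 loci, the text names for each locus up to 3 named loci with a mean of at least 100 and the highest Pearson correlation, and from each list the 2 members with the largest called change toward maturity in each line. Lists hold the loci whose gene names contain given words. The spellings heat-shock protein 101, chaperone DNA J and Binding protein homolog were added after the names had been seen. Replicates are numbered in the order of the records, and the library codes are not shared between groups, so no samples were paired. Transfer layer and aleurone markers were also summed, and they took 0 to 0.0367% and 0.00708 to 0.0414% of the counts in loci. Promoters and proteins of the 8 genes were not analysed here. Fold changes on the log2(signal + 1) scale understate changes of low loci, and counting error alone is small beside the spread between libraries except at the lowest counts.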

Additional observations from a re-analysis of the deposited data

Results flagged for a closer look

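The stage change from DAP 24 to DAP 35 differed between the lines, by the test of the JI63 change minus the DAN3130 change in limma, for 5 heat shock protein loci and for heat-shock protein 101. The log2 difference was -3.36 for hsp26, -2.09 for hsp90, -3.36 for hsp22, -4.74 for hsp18c, -1.62 for hsp1 and -1.86 for heat-shock protein 101. All of them rest on the same immature libraries.

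Reads were also counted in intron entries of 2 of the loci, which the comparisons did not use. Over the 18 libraries the intron entry of the hsp1 locus held 1530 reads and that of the hsp18a locus 1915 reads. The hsp1 entry counted 0 to 28.3 in immature DAN3130 libraries, 6.40 to 115 in immature JI63, 91.8 to 403 in mature DAN3130 and 209 to 818 in mature JI63, which was 0.189 to 0.321% and 0.457 to 1.14% of the count of its locus at maturity. Replicate 1 of JI63 on DAP 24, with the highest of the immature counts, was above replicate 3 of mature DAN3130. The hsp18a entry, which covers 418250 bases between the joined genes, counted 20.8 to 54.0 in DAN3130 on DAP 24 and 470 to 710 in mature JI63. In replicate 3 of DAN3130 on DAP 24 it held 37 reads, more than the 29 of the locus itself.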

How the results depend on the processing

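Of 2160 values of single loci under the alternatives, 1997 kept their direction and their side of the threshold, 83 lost a call, 37 gained one and 43 changed sign, and 28 of the 72 locus values kept both under every alternative. Apart from the rise of hsp70-4 in JI63 toward maturity, the changes of sign concern values that limma did not call. On equal totals hsp70-4 turned to -0.20 and -0.26 toward maturity in DAN3130 and JI63, hsp70-4 and hsp18c to 0.31 and 0.29 between the mature lines, and hsp70-4, hsp18c and hsp18a to -0.053, -0.12 and -0.32 for the difference between the changes toward maturity. In JI63 up to DAP 35, hsp18f turned to 0.40 under edgeR and DESeq2, and hsp90 to 0.028 with equal upper quartiles. Under edgeR and DESeq2 hsp18c turned to -0.13 and -0.15 between the lines on DAP 35, and under DESeq2 to -0.10 for the difference toward maturity. Without both libraries that stood apart hsp18c turned to 0.18 between the mature lines.

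With single libraries left out, values that turned ranged as follows. In JI63 up to DAP 35 the range was -0.24 to 0.30 for hsp90, -1.13 to 0.40 for hsp18f and -0.35 to 0.014 for hsp70-4. Between the lines on DAP 35 it was -0.30 to 0.89 for hsp18c, -0.11 to 0.33 for hsp90 and -0.11 to 0.56 for hsp22. Between the mature lines it was -0.059 to 0.67 for hsp90, -0.34 to 1.02 for hsp22, -0.43 to 0.075 for hsp70-4, -0.63 to 0.18 for hsp18c and -0.0099 to 0.43 for hsp18a. For the difference toward maturity it was -0.091 to 1.09 for hsp18c, -0.069 to 0.55 for hsp18a, -0.83 to 0.53 for hsp22 and -0.56 to 0.17 for hsp90.

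The count of 1 locus called in JI63 from DAP 24 to DAP 35 became 2 with a pseudocount of 5, equal upper quartiles, DESeq2, a variance for each group or both libraries that stood apart left out, and 0 with no filter, edgeR, only the groups compared or no trend. The 7 called in DAN3130 toward maturity became 5 with only the groups compared and 6 with a variance for each group, and the 8 in JI63 became 5 on equal totals and 7 with no filter, no trend or without both libraries. The 0 called between the lines on DAP 35 became 1 without both of those libraries. The 0 between the lines at maturity became 1 with a pseudocount of 5 or equal upper quartiles, 2 on equal totals or under DESeq2, and 4 without both libraries. The 5 of the difference up to DAP 35 became 3 with no filter, on equal totals or with no trend, 6 under DESeq2 or without both libraries and 7 with a variance for each group, and the 0 of the difference toward maturity became 2 without both libraries. With single libraries left out, the counts ran from 3 to 7 (DAN3130 up to DAP 35), 0 to 2 (JI63), 7 to 8 (DAN3130 toward maturity), 7 to 8 (JI63), 6 to 7, 0 to 1 and 0 to 3 (lines on DAP 24, on DAP 35 and at maturity), and 2 to 5 and 0 to 2 (differences). Over all loci the calls up to DAP 35 were 1288 higher and 624 lower in DAN3130 in limma, 1242 and 327 in edgeR and 2136 and 1210 in DESeq2, and those of the difference were 206 and 484, 122 and 416, and 719 and 1233. The difference toward maturity gave 2311 and 1721 in limma and 1217 and 704 in edgeR. In JI63 up to DAP 35 there were 1245 and 1408 in limma and 2116 and 2154 in DESeq2. The cause was not tested, except that equal totals move all mature values down by construction. Depth limited the lowest values, such as 29 reads of hsp18a and 33 of hsp26 in DAN3130 on DAP 24. No paired analysis was possible because the columns carry no shared replicate numbers.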

Other observations

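The proportion of the plastid hsp26 to hsp18c, a ratio within a library that is free of the scale between libraries, followed a course of its own. It was 0.354 to 0.451 in DAN3130 and 0.125 to 0.545 in JI63 on DAP 24, and 0.864 to 1.69 and 0.984 to 2.49 on DAP 35, above every DAP 24 library of the same line. At maturity it was 0.422 to 0.457 in JI63, below every DAP 35 library, and 0.492 to 1.67 in DAN3130, where it overlapped with DAP 35. These are values without a test, and the pattern was noticed in the data.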
